A study of Caenorhabditis elegans with 50 samples.

Results

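Mitochondrial ribosomal protein genes of Caenorhabditis elegans were followed across 10 strains, as messenger RNA of whole adults. The members are the entries of the deposited table that name a single gene of the class mrpl (large subunit) or mrps (small subunit). Of 66 entries that name such a gene, 35 name it alone, and 2 of these belong to mrpl-45 at the same locus and were summed. This gave 34 genes, 23 of the large and 11 of the small subunit, among 33458 entries. The other 31 entries join an mrpl or mrps gene to neighbouring genes and were not used. mrps-5, known in this worm because its knockdown lengthens life, is in a joined entry and is therefore not a member.

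The mitochondrial ribosome is built from nuclear-encoded proteins, which are imported into the matrix, and from ribosomal RNAs encoded by mitochondrial DNA. It translates the few messenger RNAs of the mitochondrial genome, whose products are subunits of the respiratory chain and ATP synthase. In this worm the germline proliferates in adults, and its mitochondria multiply during oogenesis. Lowering mitochondrial ribosomal proteins by RNA interference is known to unbalance mitochondrial against nuclear subunits and to switch on the mitochondrial unfolded protein response.

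The comparisons ask how these messages depend on DAF-16, a FOXO factor that insulin/IGF-1 signalling holds in check, in worms labelled as long-lived. Each strain had 5 biological samples, taken from synchronized worms on day 1 as adults, with a library each. mg54 and mu86 are loss-of-function alleles of daf-16, the first a nonsense mutation and the second a deletion. The daf-2 family, with 35 libraries, is made of the wild type (here WT), the single mutant daf-2(e1368) with its doubles daf-16(mg54);daf-2(e1368) and, for the other daf-16 allele, daf-16(mu86);daf-2(e1368), and the single mutant daf-2(e1370) with its doubles daf-16(mg54);daf-2(e1370) and, likewise, daf-16(mu86);daf-2(e1370). The receptor for insulin-like ligands is the product of daf-2, and both alleles reduce its function. These animals spent 72 hours at 15 °C and then moved to 20 °C, and the egg lay of daf-2(e1370) was set 6 hours earlier. The glp-1 family, with 15 libraries, is made of the single mutant glp-1(e2141) and its doubles daf-16(mg54);glp-1(e2141) and, with the other allele, daf-16(mu86);glp-1(e2141). glp-1 encodes a Notch receptor that germline stem cells need, and at 25 °C, where these strains spent 48 hours, the allele removes the germline in all 3 strains. WT at 25 °C was not analysed here, so glp-1(e2141) was compared only with its own daf-16 doubles.

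Library totals were 19893287 to 34247082 estimated counts in the daf-2 family, except for daf-2(e1370) replicate 2 with 2367903, and 13822794 to 23811798 in the glp-1 family. A member held 12 to 208 counts in that shallow library and 84 to 3699 in the other 49. In both doubles of daf-2(e1370), replicates 0 and 1 also stood apart. Their summed sperm markers were 233 to 681 CPM (the usual depth-scaled unit of counts, with library sizes corrected by TMM factors), against 768 to 2898 in the other 31 daf-2 family libraries. Values without these libraries are given for the counts of members called and for the daf-16 effects compared between backgrounds. Log2 differences of single genes from the doubles and WT, and those of other gene lists, include these libraries. Of the 34 members, mrps-10 was listed at 0 in every library, and mrps-25 and mrps-34 were listed at 0 in whole strains at loci where an exact 0 can be a failed estimate. This left 31 members tested in the daf-2 family and 32 in the glp-1 family, 31 of them in both.

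In WT the members differed in level by gene. Per kb of coding length, mrpl-11, mrpl-12 and mrpl-51 stood highest, at 153 ± 6.42, 144 ± 28.9 and 140 ± 7.72 CPM per kb (SD, n = 5). mrpl-11 and mrpl-12 are named after bacterial proteins of the ribosomal stalk region, where translation factors bind. Neither pair of neighbours among these 3 differed beyond its spread. The lowest were mrpl-35 at 54.8 ± 2.37, mrpl-4 at 52.0 ± 1.51 and mrps-31 at 28.4 ± 0.956 CPM per kb. mrps-31, a small subunit protein without a bacterial counterpart, stood apart from mrpl-4 by more than the spread of either, while mrpl-35 and mrpl-4 lay close together. Both mrpl-35 and mrps-31 lie in the same locus of 78 entries, so their counts rest on how reads were divided there. Coding lengths, known for 33 members, ran from 231 to 1239 bases with a median of 573. By the deposited ce10 coordinates, 15 of the 34 members lie on chromosome III, which holds 15% of all tested entries, and 0 lie on X, which holds 15.8%. The 15 include mrps-10, which was not tested, and mrps-34, which was tested in the glp-1 family only.

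daf-2(e1370) had the lowest mitochondrial ribosomal protein messages of the daf-2 family. The summed level of the 31 members was 1500, 1572, 1123, 1464 and 1566 CPM in its libraries 0 to 4, and 1711, 1757, 1703, 1690 and 1761 CPM in those of WT. The same sum was 1887, 1834, 1586, 1700 and 1729 CPM in daf-16(mg54);daf-2(e1370) and 1765, 1821, 1612, 1697 and 1699 CPM in daf-16(mu86);daf-2(e1370). Every daf-2(e1370) library lay below every library of WT and of both doubles, and replicate 2 lay well below the rest of its own group. In each daf-2(e1370) library, 18 to 28 of the 31 members were below the lowest WT library, against 0 to 15 in daf-16(mu86);daf-2(e1370) and 1 to 19 in daf-16(mg54);daf-2(e1370). The 28 belongs to the shallow replicate 2. The share of all entries was not computed for these counts, so they only describe the members. RNA came from whole animals, so fewer cells of a type and less RNA per cell cannot be told apart.

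**Figure D1:**
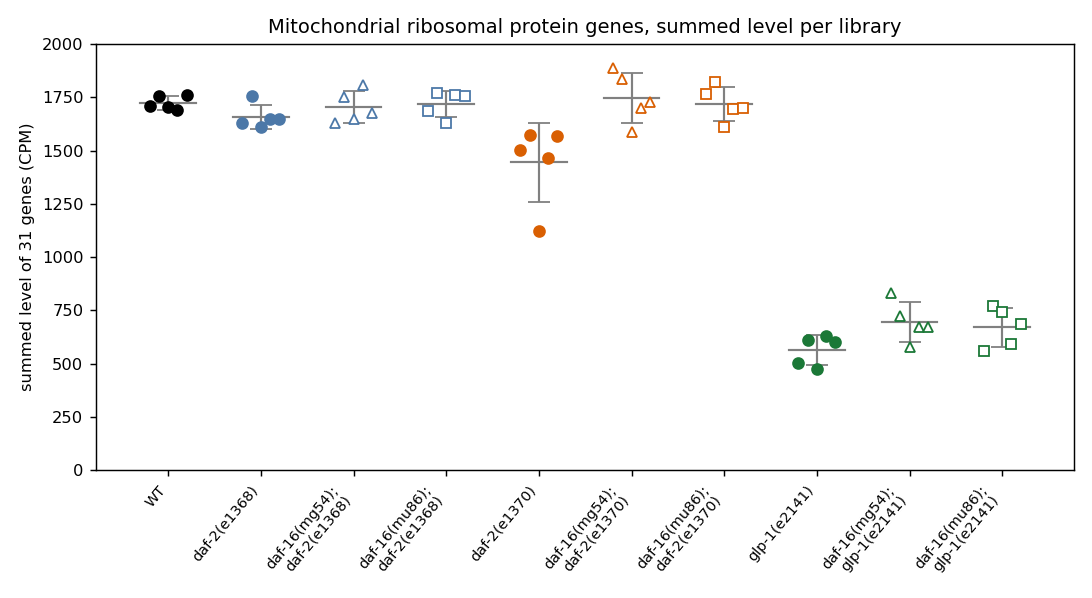
Summed level of 31 mitochondrial ribosomal protein genes (CPM, vertical axis) in each of 5 libraries of 10 strains (horizontal axis), with grey lines for mean and SD. The daf-2(e1370) libraries sit between 1123 and 1572 CPM, below all other libraries of the daf-2 family, and the 15 glp-1 family libraries sit between 475.4 and 831.1 CPM.

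Against daf-16(mg54);daf-2(e1370), 17 of 31 members were lower in daf-2(e1370) and 0 were higher (edgeR quasi-likelihood test, Benjamini-Hochberg adjusted p under 0.05), while 10.4% of all tested entries were lower and 11.8% higher. Against daf-16(mu86);daf-2(e1370), 14 were lower and 0 higher, with 10.3% of entries lower and 11.2% higher. Against WT, 16 were lower and 0 higher, with 8.4% of entries lower and 9.84% higher. These 3 comparisons share the 5 daf-2(e1370) libraries. The median log2 difference of the members was -0.26, -0.25 and -0.24 in that order, and that of all tested entries was 0.02 in each. Of the 23 large subunit genes, 12, 9 and 9 were lower, and of the 8 tested small subunit genes, 5, 5 and 7 were lower. Only mrpl-35 was not below 0 in any of the 3, at 0.04 ± 0.07 (SE) against the mg54 double, 0.00 ± 0.07 against the mu86 double and 0.01 ± 0.07 against WT. Its counts rest on how reads were divided at its locus of 78 entries.

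The counts depended on which libraries entered the fit. Without daf-2(e1370) replicate 2 the members lower were 12, 12 and 9, and their medians -0.18, -0.17 and -0.18. Without replicate 0 of the mg54 double alone, the first count was 11. Leaving out replicates 0 and 1 of the mg54 and mu86 doubles made them 7, 10 and 19, and without all 5 of these libraries they were 6, 5 and 14, with medians of -0.16, -0.13 and -0.18. With only the compared strains in the fit they were 3, 4 and 5. The shares of all entries given above belong to the fit of the whole daf-2 family. None was set beside these counts, so the members' excess over all entries cannot be read from them. mrps-23, mrpl-53 and mrpl-15 were lower against both doubles and against WT under each of the 18 alternatives run per comparison.

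**Figure D2:**
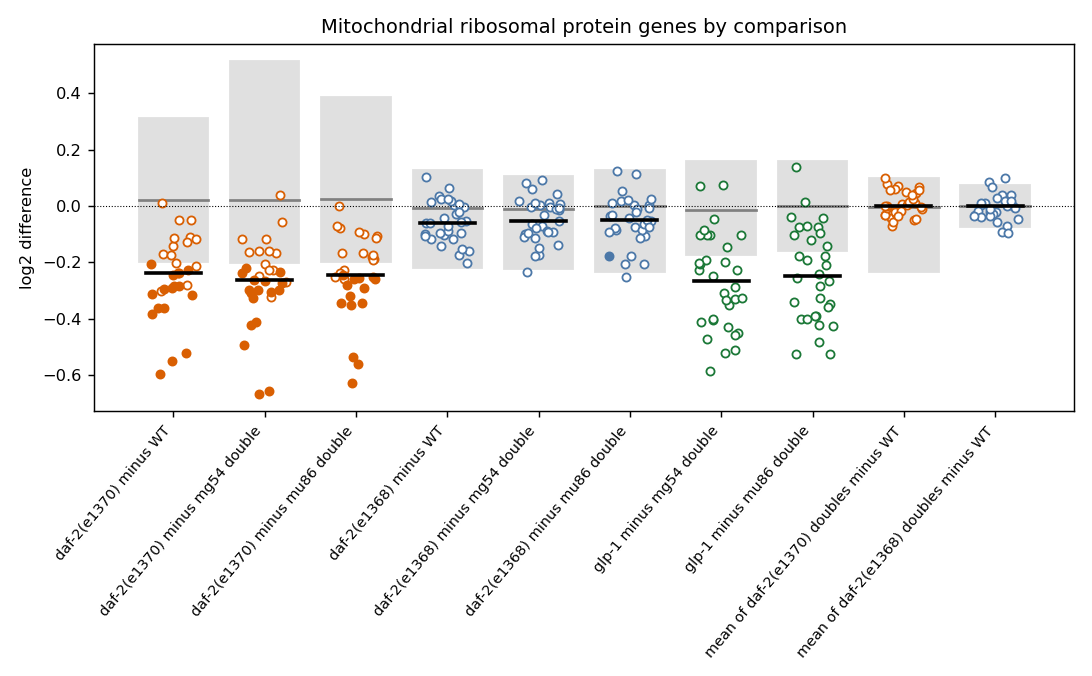
Log2 differences (vertical axis) of each tested member in 10 comparisons (horizontal axis). Filled points passed the test, black bars are the members' medians, and grey boxes with a line are the quartiles and median of all tested entries. Members of the daf-2(e1370) and glp-1 comparisons lie mostly below 0 with medians of -0.24 to -0.27, while filled points occur only for daf-2(e1370), apart from 1 for daf-2(e1368).

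Among the small subunit genes, mrps-23 had the largest differences. It encodes a protein that in mammals is found in mitochondrial but not bacterial ribosomes. In daf-2(e1370), mrps-23 stood at 30.8, 33.8, 24.8, 29.9 and 34.2 CPM, and in WT at 46.8, 45.5, 47.7, 46.6 and 41.0 CPM. Its level was 50.8, 54.6, 46.5, 49 and 46.8 CPM in the mg54 double and 52.8, 55.2, 44.5, 47.4 and 41.1 CPM in the mu86 double. All 5 daf-2(e1370) libraries were below the other 15, with no overlap. The log2 differences were -0.67 ± 0.08 (SE, adjusted p 2.69e-07) against mg54, -0.63 ± 0.08 (adjusted p 7.09e-07) against mu86 and -0.55 ± 0.08 (adjusted p 8.31e-06) against WT. mrps-23 lies in a locus of 57 entries (chromosome III, 9383704 to 9601983 on ce10), so its counts rest on how reads were divided there.

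mrps-9, named after a conserved protein of the small subunit head, showed a smaller difference. Its libraries of daf-2(e1370) stood at 58.6, 57.7, 47.8, 60.7 and 58.7 CPM, and those of WT at 66.6, 68.8, 72.4, 66.4 and 64.9 CPM. The 2 groups did not overlap, and the lowest library of either double was 64.7 CPM. The log2 differences were -0.31 ± 0.06 (adjusted p 0.000169) against mg54, -0.26 ± 0.06 (adjusted p 0.00108) against mu86 and -0.24 ± 0.06 (adjusted p 0.00225) against WT. mrps-17, another conserved small subunit gene, was lower by 0.41 ± 0.09, 0.35 ± 0.09 and 0.38 ± 0.09 on the log2 scale (adjusted p 0.00114, 0.00559 and 0.0024), again without overlap.

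Among the large subunit genes, mrpl-53 had the largest differences. Its mammalian counterpart is a mitochondria-specific protein of the large subunit. In daf-2(e1370), mrpl-53 stood at 14.4, 14.4, 12.2, 16.7 and 18.2 CPM, while WT had 22.6, 22.5, 23.6, 22.1 and 25.6 CPM. The libraries of the mg54 double were at 21.5 to 27.7 CPM and those of the mu86 double at 20.4 to 25.8 CPM, all above daf-2(e1370). The log2 differences were -0.66 ± 0.09 (adjusted p 8.18e-07), -0.56 ± 0.09 (adjusted p 9.66e-06) and -0.60 ± 0.09 (adjusted p 4.47e-06) against mg54, mu86 and WT.

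mrpl-15, named after a conserved core protein of the large subunit, had the smallest errors of the family. Its libraries of daf-2(e1370) stood at 59.3, 63.4, 48.3, 58.5 and 59.7 CPM, and those of WT at 73.9, 76.3, 72.3, 75.8 and 76.9 CPM. Every library of both doubles was at 69.8 CPM or above, so the groups did not overlap. The log2 differences were -0.31 ± 0.05 (adjusted p 1.55e-05), -0.35 ± 0.05 (adjusted p 2.02e-06) and -0.36 ± 0.05 (adjusted p 1.49e-06). It is the only entry at its locus (chromosome I, 1435789 to 1441216 on ce10).

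mrpl-22, whose bacterial counterpart lines the tunnel through which the new chain leaves, stood at 38.8, 42.1, 30.9, 39.4 and 42.1 CPM in the daf-2(e1370) libraries, and those of WT at 49.7, 47.5, 46.2, 47 and 49.4 CPM. mrpl-10, named after the protein that anchors the stalk, stood at 48.0, 44.9, 37.5, 44.9 and 48.1 CPM and at 52.1, 56.1, 52.9, 48.6 and 56.7 CPM in the same strains. Neither gene's groups overlapped, although the highest daf-2(e1370) and lowest WT values of mrpl-10 were close. The log2 differences from mg54, mu86 and WT were -0.26 ± 0.06, -0.28 ± 0.06 and -0.29 ± 0.06 for mrpl-22 (adjusted p 0.00337, 0.00158 and 0.00118). For mrpl-10 they were -0.33 ± 0.07, -0.29 ± 0.07 and -0.24 ± 0.07 (adjusted p 0.00135, 0.00345 and 0.0199), and the call against WT was lost without daf-2(e1370) replicate 2, WT replicate 1 or WT replicate 4. mrpl-12, the stalk protein proper, was lower by 0.42 ± 0.14, 0.54 ± 0.14 and 0.52 ± 0.14 (adjusted p 0.0282, 0.00522 and 0.0076), but its libraries overlapped.

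**Figure D3:**
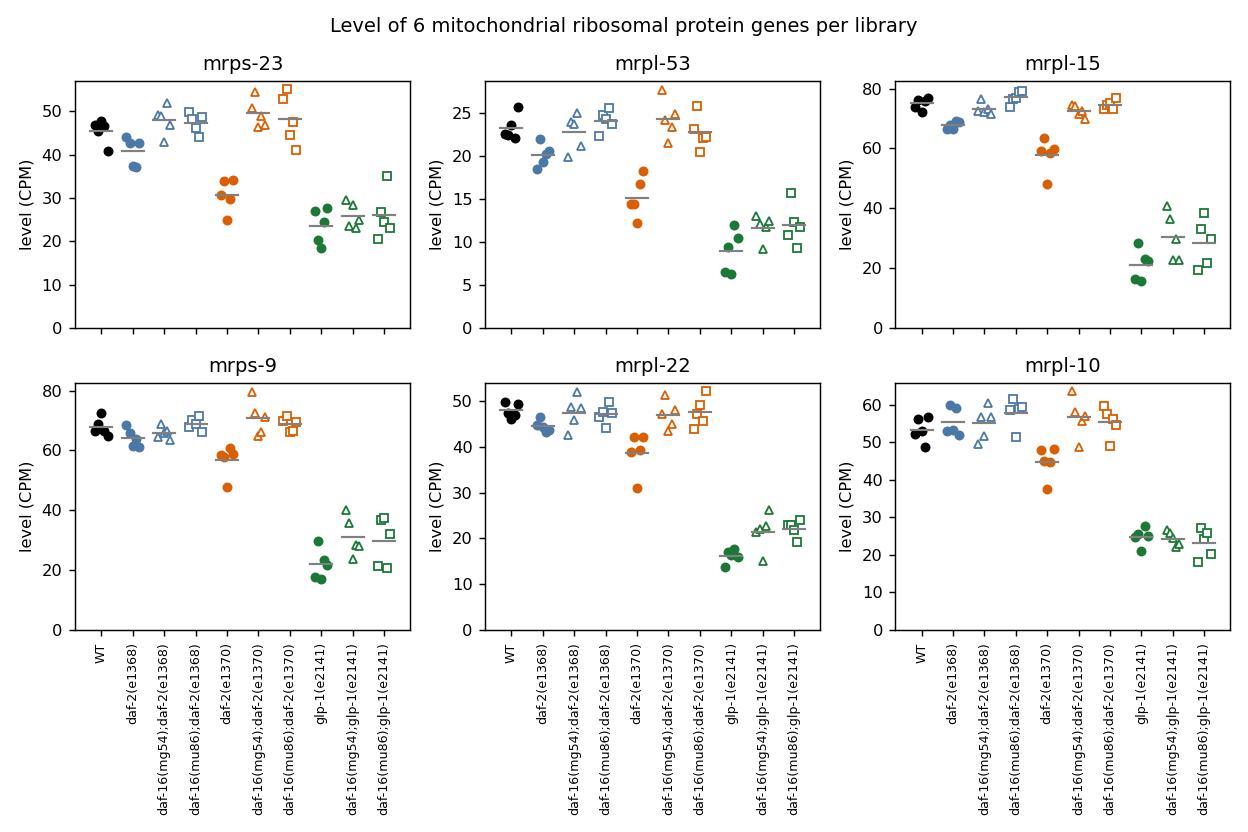
Level (CPM, vertical axis) of 6 members in each of 5 libraries of 10 strains (horizontal axis), with grey lines for the mean. These 6 were chosen by the lowest adjusted p against both daf-2(e1370) doubles. In all 6 the daf-2(e1370) libraries lie below WT and both doubles, and for mrps-23 they lie at 24.8 to 34.2 CPM against 41.0 to 55.2 CPM.

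Non-overlap was less frequent than the calls. All 5 daf-2(e1370) libraries were below all 5 of the mg54 double for 8 members, against 4.58% of entries, below all 5 of the mu86 double for 9 members, against 5.9% of entries, and below WT for 11 members, against 6.37% of entries.

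No member passed the test between the doubles and WT. For the mean of both daf-2(e1370) doubles minus WT, 0 of 31 members passed the test in either direction, with 1.3% of entries called. The members' differences there ran from -0.07 to 0.10, around a median of 0.00, with standard errors of 0.04 to 0.14. For the doubles of daf-2(e1368) the count was also 0, with 0.425% of entries called and a range of -0.10 to 0.10. Neither comparison had a member with an unadjusted edgeR p under 0.05, a threshold at which 5.66% and 1.66% of entries were lower and 4.11% and 1.97% higher, and DESeq2 called 0 in each. Between mg54 and mu86 doubles 0 members were called in the backgrounds of daf-2(e1370), of daf-2(e1368) and of glp-1, where 0.204%, 0.0934% and 0.0192% of entries were called. At an unadjusted p under 0.05 there was 1 member, higher with mg54 in the daf-2(e1370) background, where 1.21% of entries were higher at that threshold, and DESeq2 called 0 in each.

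daf-2(e1368), the other allele of the receptor gene, had 1 member called in 3 comparisons. Its summed level was 1632, 1757, 1611, 1647 and 1646 CPM, with replicate 1 inside the WT range and the other libraries below it. Against the mu86 double 1 member, mrpl-15, was lower, with 1.72% of entries lower, and 0 were higher. mrpl-15 stood at 66.4, 67.7, 66.6, 69.1 and 68.9 CPM in daf-2(e1368), against 74.0, 76.5, 76.9, 78.7 and 79.3 CPM in the mu86 double, without overlap, as for 3.34% of entries. Its log2 difference was -0.18 ± 0.05 (adjusted p 0.0305), and leaving out any of 9 of the 10 libraries ended this call, with adjusted p up to 0.0946. Against the mg54 double 0 members were called, with 2.83% of entries called, and 3 were lower at an unadjusted p under 0.05, as were 4.98% of entries. Against WT 0 were called, with 2.06% of entries called, and 3 were lower at an unadjusted p under 0.05, as were 4.89% of entries. DESeq2 called 0 against mg54 and 1 against WT, mrpl-15 at -0.14 ± 0.04 (adjusted p 0.00702). The members' medians were -0.05, -0.05 and -0.06 against mg54, mu86 and WT. With the replicate number as a block over the whole daf-2 family, mrps-23 was lower by 0.23 ± 0.07 against mg54 (edgeR adjusted p 0.0425). The pairing check held for daf-2(e1368) with its mg54 double but not for most strains in that fit, which limits this value.

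In animals without a germline, none of the members passed the edgeR test between glp-1(e2141) and its doubles. Their median log2 difference was -0.27 against daf-16(mg54);glp-1(e2141) and -0.25 against daf-16(mu86);glp-1(e2141), with all entries at -0.01 and 0.00. In both comparisons 30 of 32 members were below 0 and 0 were called by edgeR, with 3.04% and 3.1% of entries called. At an unadjusted p under 0.05, 7 and 8 of 32 members were lower and 0 higher, while 7.02% and 7.01% of entries were lower and 8.04% and 7.86% higher. DESeq2 called 1 in each, mrpl-45 at -0.52 ± 0.17 (adjusted p 0.0338) against mg54 and mrpl-22 at -0.43 ± 0.13 (adjusted p 0.0227) against mu86. Standard errors in these comparisons ran from 0.09 to 0.28, with a median of 0.15, against 0.05 to 0.16 and a median of 0.09 for daf-2(e1370). The summed level was 503.2, 610.9, 475.4, 630.7 and 600.0 CPM in glp-1(e2141), 831.1, 722.3, 577.6, 670.6 and 674.1 CPM in its mg54 double, and 557.7, 772.1, 741.7, 593.5 and 688.4 CPM in its mu86 double. These groups overlapped. All 5 glp-1(e2141) libraries were below all 5 of the mg54 double for 1 member, mrps-34, against 2.28% of entries, and below all 5 of the mu86 double for 3 members, mrpl-2, mrpl-22 and mrpl-45, against 2.14% of entries.

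The daf-16 effect is the single mutant minus the mean of its mg54 and mu86 doubles, and its difference between backgrounds was tested directly. Between the alleles of daf-2, 2 of 31 members differed, with 1.49% of entries lower. mrps-23 was lower by 0.43 ± 0.10 more in daf-2(e1370) than in daf-2(e1368) (adjusted p 0.00981), and mrpl-53 by 0.39 ± 0.11 more (adjusted p 0.0245). The median of the 31 differences was -0.19, against 0.02 for all entries. Without the 5 libraries that stand apart 0 members were called, and mrps-23 was at -0.28 ± 0.09 (adjusted p 0.0767). The call of mrpl-53 was also lost without any of 10 single libraries, with adjusted p up to 0.101.

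Between daf-2(e1370) and glp-1(e2141), 2 members differed, with 2.85% of entries lower. mrps-23 had a daf-16 effect of -0.65 ± 0.07 in daf-2(e1370) and -0.09 ± 0.12 in glp-1(e2141), and the difference was -0.58 ± 0.15 (adjusted p 0.00809). mrpl-10 had effects of -0.31 ± 0.06 and 0.10 ± 0.10, and the difference was -0.44 ± 0.13 (adjusted p 0.0215). In the opposite direction, mrpl-45, whose mammalian counterpart tethers the ribosome to the inner membrane, had effects of -0.11 ± 0.06 and -0.50 ± 0.14, a difference of 0.37 ± 0.14 that did not pass (adjusted p 0.104). The call of mrpl-10 was lost without glp-1(e2141) replicate 3 or daf-2(e1370) replicate 2 or 3, with adjusted p up to 0.0562. With the 4 libraries of the doubles left out, mrpl-45 alone was called, at 0.48 ± 0.14 (adjusted p 0.0274), and mrps-23 was at -0.43 ± 0.14 (adjusted p 0.0545). With all 5 libraries that stand apart left out, mrps-23 was at -0.40 ± 0.15 (adjusted p 0.0936) and mrpl-45 at 0.40 ± 0.13 (adjusted p 0.045). The median of the 31 differences was 0.00. The families differ in temperature as well as genotype, which cannot be told apart here.

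**Figure D4:**
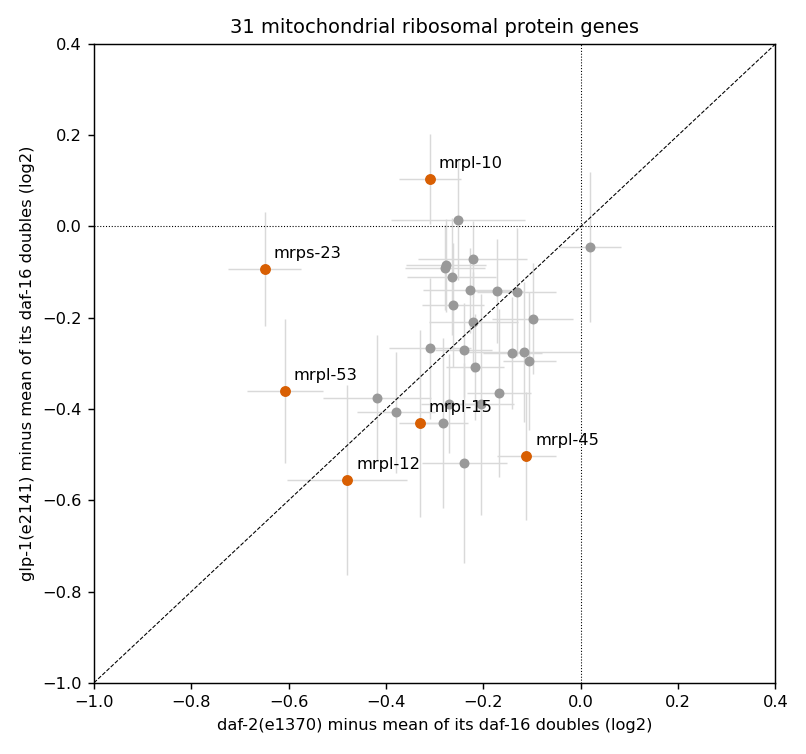
The daf-16 effect (log2, single mutant minus mean of its doubles) of 31 members in daf-2(e1370) (horizontal axis) and glp-1(e2141) (vertical axis), which share no library. Bars are SE and the dashed line marks equal effects. mrps-23 (-0.65 and -0.09) and mrpl-10 (-0.31 and 0.10) lie above the line and mrpl-45 (-0.11 and -0.50) below it.

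The 15 libraries without a germline had far lower mitochondrial ribosomal protein messages than the daf-2 family. Every one of the 31 members was below its lowest WT library in all 15, a count for which the share of all entries was not computed. On the TMM scale the members' median log2 ratio of glp-1 family to daf-2 family was -1.41, from -2.32 for mrpl-45 to -0.59 for mrpl-55, while all 12183 entries with values in both had a median of 0.32. With DESeq2 size factors these medians were -1.63 and 0.12. Relative to all entries the members were thus lower by 1.73 or 1.75 on the log2 scale. For 25 of 31 members all 15 glp-1 family libraries lay below all 35 others, against 31.1% of entries. No test was made, since genotype, temperature and germline change together.

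mrpl-45 had the widest span over the 10 strains, at 2.83 on the log2 scale, and lay at 7.79 to 15.8 CPM in the glp-1 family and 51.0 to 66.1 CPM in the daf-2 family. mrpl-18, mrpl-39, mrps-17 and mrpl-54 followed with spans of 2.38, 2.3, 2.27 and 2.17. mrpl-18 and mrps-17 have bacterial counterparts, and mrpl-39 and mrpl-54 are known from mitochondrial ribosomes. mrpl-45, mrpl-18 and mrpl-39 thus varied most across strains, yet within the daf-2 family their spans were 0.19, 0.24 and 0.24, against a range of 0.12 to 0.69 over the members. The members whose libraries overlapped between families were mrpl-12, mrpl-14, mrpl-36, mrpl-53, mrpl-55 and mrps-23.

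**Figure D5:**
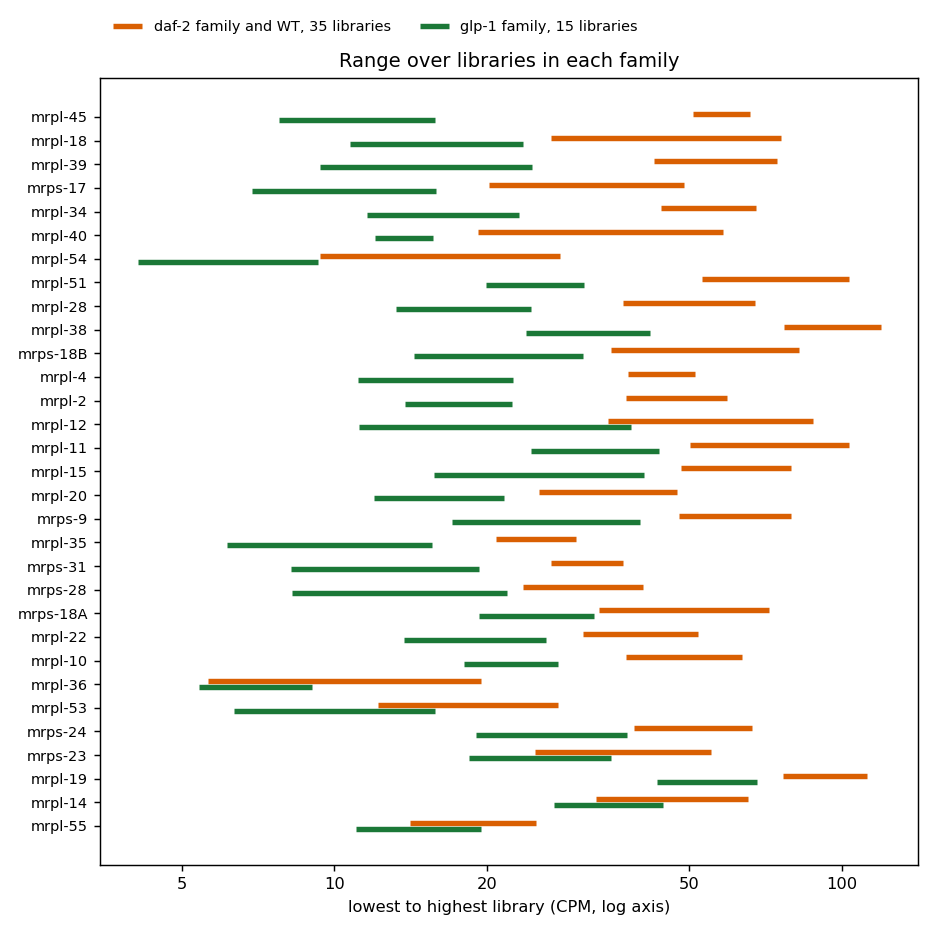
Lowest to highest library (CPM, log axis) of each of 31 members in the 35 libraries of the daf-2 family and WT and the 15 libraries of the glp-1 family, ordered by the ratio of the families. mrpl-45 at the top lies at 7.79 to 15.8 against 51.0 to 66.1 CPM, and the bars of 25 members do not overlap.

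Other genes of mitochondria and ribosomes were counted beside the members. In daf-2(e1370) against mg54, mu86 and WT, 10.4%, 10.3% and 8.4% of all tested entries were lower and 11.8%, 11.2% and 9.84% higher. Small counts in a list are not read as results about that list. Of the cytosolic ribosomal proteins, 26, 30 and 30 of 54 tested were lower in daf-2(e1370) against mg54, mu86 and WT and 0 were higher, with medians of -0.32, -0.39 and -0.36. rps-23, a small subunit gene of that ribosome, was lower by 0.45 ± 0.10, 0.45 ± 0.10 and 0.45 ± 0.10 (adjusted p 0.00166, 0.00129 and 0.00157). Of the mitochondrial translation factors and aminoacyl-tRNA synthetases, 3, 1 and 2 of 6 were lower and 0 higher. tufm-1, the mitochondrial elongation factor Tu, was lower by 0.23 ± 0.05, 0.21 ± 0.05 and 0.31 ± 0.05 (adjusted p 0.00128, 0.00295 and 2.43e-05). Of the chaperones, proteases and import genes, 3, 4 and 5 of 12 were lower, among them tomm-40, the channel of the outer membrane translocase, at -0.34 ± 0.06, -0.32 ± 0.06 and -0.36 ± 0.06. dve-1, a transcription factor of the mitochondrial unfolded protein response, was higher by 0.64 ± 0.15 against mg54 and 0.49 ± 0.15 against mu86 (adjusted p 0.00221 and 0.0164). Of the nuclear-encoded respiratory chain and ATP synthase genes, 4, 4 and 2 of 15 were lower and 1, 0 and 0 higher. The 12 protein genes of the mitochondrial genome were looked for and none had an entry of its own.

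The same groups divided otherwise between the families. Without a germline, the 6 translation factors and synthetases had a median log2 ratio of -1.91, all with non-overlapping libraries, and the 12 chaperone and import genes one of -1.12. The cytosolic ribosomal proteins had a median of -0.47 and the respiratory chain genes 0.13. With DESeq2 size factors these were -2.13, -1.34, -0.68 and -0.08, so the last changed sign. As a check of the label, all 18 oogenic germline markers had every glp-1 family library below every other, their sum was 19.5 to 53.8 CPM against 8866 to 17276 CPM, and 16 averaged under 1 CPM, though none was at 0 in all 15 libraries. Summed sperm markers were 53.5 to 75.7 CPM against 233 to 2898 CPM, and msp-32, msp-74 and ssp-32 were at 0. The 12 embryo markers had a median log2 ratio of -2.34 and summed to 140 to 205 CPM, against 442 to 667 CPM. Of these 12, 3 had every glp-1 family library below every other and 1 above, and 9 averaged under 1 CPM in the glp-1 family. Markers of body wall muscle, intestine, neurons and hypodermis had median log2 ratios of 0.98, 0.60, 1.18 and 1.54. The part of cell composition in the members' ratio was not tested.

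Within the daf-2 family, marker sums moved with single libraries. The shares of all entries are those given with the gene lists above, and small counts of markers are not read as results about a list. The 18 oogenic markers, of which 0, 1 and 0 were lower in daf-2(e1370) against mg54, mu86 and WT and 0 were higher, had medians of -0.20, -0.18 and -0.08. Their sum was 10219 to 13237 CPM in daf-2(e1370), 9119 to 15524 CPM in its doubles and 9085 to 14529 CPM in WT. The 4 libraries of the doubles with low sperm sums had oogenic sums of 14564 to 15524 CPM and member sums of 1765 to 1887 CPM, and the other 6 had 9119 to 12839 and 1586 to 1729 CPM. Those 4 also had body wall muscle sums of 2034 to 3431 CPM, against 3817 to 9239 CPM in the other 31 daf-2 family libraries. Their neuron sums were 112 to 141 against 143 to 290 CPM, and their hypodermis sums 57.5 to 67.1 against 73.1 to 143 CPM. Their intestine sums, 3943 to 4427 CPM, lay inside the range of the 31. Body wall muscle markers summed to 9239 CPM in daf-2(e1370) replicate 2, above the 4111 to 6107 CPM of its group and the 5106 to 6254 CPM of WT, and that library had the lowest member sum of the daf-2 family. Of 16 neuron markers 3, 3 and 1 were higher and 0 lower, and of 12 hypodermis markers 3, 3 and 2 were higher and 1, 2 and 0 lower. Of 7 intestine markers 3, 3 and 1 were lower and 1, 1 and 1 higher, with medians of -0.27, -0.24 and -0.11. pept-1, an intestinal peptide transporter, was lower by 0.73 ± 0.17, 0.79 ± 0.17 and 0.82 ± 0.17 (adjusted p 0.00136, 0.000542 and 0.000427), and ges-1, a gut esterase, was higher by 1.53 ± 0.07, 1.69 ± 0.07 and 1.62 ± 0.07 (adjusted p 3.31e-17, 1.68e-18 and 8.84e-18). The intestine sum was 2726 to 4144 CPM in daf-2(e1370), 3943 to 5550 CPM in its doubles and 2925 to 4497 CPM in WT. Of 47 sperm markers 1, 0 and 0 were higher and 0 lower, of 12 muscle markers 0, 1 and 0 were higher and 0 lower, and of 4 embryo markers 1, 0 and 0 were lower and 0 higher. Their part in the members' differences was not tested.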

How the data were processed

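The authors deposited estimated counts per gene entry and library, whose values need not be whole. The ce10 build and Cuffdiff 2.1.1, Cufflinks, TopHat2 2.0.9 and Bowtie2 2.1.0 are listed in the submitters' processing notes, without roles. Strand use in counting is not given in the sources used, and a gene cannot be told apart from an antisense partner. Counts were rounded. The 314 entries that name no gene (0.187% to 0.48% of counts) were left out, and the 4500 that join genes (25.3% to 35.1%) were tested but credited to no member. Entries of equal name and locus were summed. A locus at 0 in every library of a strain while another strain of its family averaged 1000 counts or more was not estimated there (10 loci in the daf-2 family, 1 in the glp-1 family).

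The tests used edgeR 4.0.16 (R 4.3.3; TMM, filterByExpr, robust quasi-likelihood fits on strain, Benjamini-Hochberg adjusted p under 0.05 over all entries). Every adjusted p is from this test unless DESeq2 1.42.0 is named. Each family was fitted alone, and daf-2(e1370) against glp-1 on all 50 libraries. Errors beside log2 differences are SE, those beside CPM are SD. The fit of the daf-2 family was tried on simulated data, for daf-2(e1370) against its mg54 double only. Those data had the same dispersion for all entries and no libraries that stand apart. The other fits and comparisons were not simulated. The WBcel235 annotation gave names and coding lengths only.

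The members, gene lists, tests and the rule for named genes were chosen with earlier results of these data known. Named with full values are the 6 members called against both daf-2(e1370) doubles with the lowest larger adjusted p, the 3 highest and lowest per kb in WT, the 5 widest spans, and up to 2 members per other list. Other members and list genes given with values were chosen after their values were seen. The rule also names mrps-5, which has no entry of its own.

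Replicates were compared in 100 within-strain pairs over entries with at least 20 counts. Their chi-square ran from 7.21 to 177 per degree of freedom, and none agreed within sampling noise. Same-numbered libraries were checked for shared deviations. Every pair's correlation exceeded 0.1 only for daf-2(e1368) with its mg54 double (0.13 to 0.803) and between the daf-2(e1370) doubles (0.726 to 0.886), so the numbers were taken to pair samples there alone, from the data and not from the labels. This rule left out other pairs of strains. For daf-2(e1370) with each of its doubles, 4 of 5 libraries matched their own number best. Alternatives were DESeq2 size factors, no filter, DESeq2, a replicate block, loci at 0 kept, the compared strains alone, each library left out, and the libraries that stand apart left out. The setting without all 5 of those was chosen after seeing the data.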

Additional observations from a re-analysis of the deposited data

Results flagged for a closer look

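Single libraries stood apart from the other 4 of their strain by Dixon's gap over range (critical value 0.71) in 4 of 70 groups examined, and chance gives about 1 in 20. The summed level of the members in daf-2(e1370) replicate 2, the shallow library, was 1123 CPM against 1464 to 1572 CPM. In the same library mrps-9 was at 47.8 CPM against 57.7 to 60.7 CPM. The summed level in daf-2(e1368) replicate 1 was 1757 CPM against 1611 to 1647 CPM. mrpl-10 in daf-16(mu86);daf-2(e1368) replicate 2 was at 51.3 CPM against 58.6 to 61.5 CPM.

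The daf-16 effect differed between backgrounds by an interaction test for 3 genes. Between daf-2(e1370) and daf-2(e1368) the difference was -0.43 for mrps-23 and -0.39 for mrpl-53. Between daf-2(e1370) and glp-1 it was -0.58 for mrps-23 and -0.44 for mrpl-10. Of these calls, 0 held under all of the 38 and 37 alternatives run, in that order.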

How the results depend on the processing

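No member's call reversed its direction under any alternative, and every one of the 52 calls held with DESeq2, DESeq2 size factors in edgeR, a replicate block and loci at 0 kept. In the order mg54 double, mu86 double and WT, members called in daf-2(e1370) numbered 3, 4 and 5 with the compared strains alone, against 17, 14 and 16, and 6 and 5 against the doubles without the 5 libraries that stand apart. Without replicates 0 and 1 of both doubles the mg54 count was 7. With each library left out the counts ran from 11 to 20, 10 to 17 and 9 to 19. For daf-2(e1368) against mu86 the count of 1 became 0 without the filter or with the compared strains alone, 2 with a replicate block and 0 to 1 with each library left out. The block gave 1 against mg54, and DESeq2 gave 1 against WT. For glp-1, DESeq2 and single libraries left out gave 0 to 1 in each comparison. The difference between the daf-2 alleles, 2 members, became 5 with DESeq2, 11 with the block, 1 with the compared strains alone, 1 and 0 without the 4 or 5 libraries, and 1 to 3 with each library left out. That between daf-2(e1370) and glp-1 became 4 with loci at 0 kept, 1 without the 4 or 5 libraries, and 1 to 3 with each left out. Loci at 0 kept added mrps-34, whose 0 can be a failed estimate, and mrpl-45, at 0.43 ± 0.12 in the opposite direction. mrpl-45 was also the 1 without the 4 or 5 libraries. Loci at 0 kept also called mrps-25 and mrps-34 higher in daf-2(e1370) against both doubles and WT, from such zeros. The causes were not tested, and the smaller fits also held fewer libraries. Shares of all entries are given only for the tests before any alternative, so none stands beside these counts.

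The replicate block gave 22, 21 and 21 members for daf-2(e1370). Same-numbered libraries correlated between -0.426 and 0.886 over all comparisons, and in the comparisons of 2 strains 0 to 5 of the 5 libraries matched their own number best, 5 for daf-2(e1368) with its mu86 double and 4 between the daf-2(e1370) doubles, or 5 of these where WT or the single mutants entered the comparison. The number was also 4 for daf-2(e1370) with each of its doubles and between the daf-2(e1368) doubles. It was 3 for daf-2(e1368) with its mg54 double and with WT, 2 for daf-2(e1370) with WT, and 0 or 1 in the glp-1 family. The block gave 3 members where daf-2(e1370) was set against glp-1 and 0 members in the comparisons not named here. With DESeq2 size factors in place of TMM the summed level was 1788 CPM in WT, 1759 in daf-2(e1368), 1781 in daf-16(mg54);daf-2(e1368), 1805 in daf-16(mu86);daf-2(e1368), 1903 in daf-16(mg54);daf-2(e1370) and 1825 in daf-16(mu86);daf-2(e1370). Only strains whose level was counted as moved are listed, and daf-2(e1370) and the glp-1 family were not among them. Their levels on this scale are not given, so the order of strains cannot be read from it. The shallow library limits each daf-2(e1370) value.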

Other observations

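3 small subunit genes could not be compared across all strains. mrps-34 was at 38.4, 35.1, 30.9, 33.3 and 40.6 CPM in daf-2(e1370) and was listed at 0 in all 30 other libraries of the daf-2 family. In glp-1(e2141) mrps-34 was at 9.92, 13.1, 8.81, 12.7 and 11.2 CPM, and every one of these libraries was below the 13.8 to 18.6 CPM of its mg54 double. The log2 difference was -0.45 ± 0.16 (adjusted p 0.16). mrps-25 was at 32.5, 34.0, 23.9, 35.3 and 43.8 CPM in daf-2(e1370) and listed at 0 in the other 45 libraries. Both lie in loci of 57 and 122 entries, and mrps-10, listed at 0 in all 50 libraries, lies in one of 124. A fold change of these genes against a strain at 0 is not given.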
